A study of Mus musculus with 12 samples.

Results

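Oxidative capacity of skeletal muscle is set in part by a small circuit of nuclear receptors and cofactors, and 9 of its genes were followed here in mouse quadriceps. They are Ppargc1a, which encodes the coactivator PGC-1alpha, the fatty acid receptors Ppara and Ppard, their dimer partners Rxra and Rxrg, the orphan receptor Esrra (ERRalpha), the corepressor Nrip1 (RIP140), the transcription factor Nrf1 and the mitochondrial DNA-binding factor Tfam. The members were all probe sets that the array annotation assigns to one of these symbols alone, which gave 17 of the 22690 probe sets (9 of 12394 genes named alone), and 0 further probe sets listed a member together with another gene. Of the 17, 15 passed the filter on low signal and were tested, covering 8 of the 9 genes.

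Gene expression was measured in quadriceps of C57Bl/6J mice on 12 oligonucleotide arrays in 4 groups of 3. Trained mice received GW1516, a synthetic agonist of the receptor PPARδ encoded by Ppard, at 5 mg/kg per day (combination), sedentary mice received the same dose (GW), trained mice received vehicle (exercise), and sedentary mice received vehicle (vehicle). All groups were dosed for 4 weeks. RNA of 3 mice was pooled for each array, which makes 9 animals a group. P-values therefore reflect only how pools differ, and differences between single mice are averaged out. Age, sex, dosing route and the kind of training are not given in the sources used here. Median signals per array lay between 48.3 and 57.2, and the number of arrays limits the precision. Arrays correlated at a mean r of 0.9496 to 0.968 with those of their own group and of 0.951 to 0.963 with those of other groups. GW arrays 1 and 2 correlated less with their own group (0.9496 and 0.957) than with other groups (0.951 and 0.963). All 8 skeletal muscle markers on the array (such as Ckm and Actn3) were above background on every array. Because whole muscle was sampled, fewer cells of a type and less RNA per cell cannot be told apart.

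PGC-1alpha does not bind DNA itself. It is recruited by receptors such as PPARs, which bind DNA as dimers with RXRs, and by ERRalpha, and it raises transcription of genes for fatty acid oxidation and respiration, while RIP140 is recruited to many of the same receptors and represses them. NRF1 and its partner factor GABP drive nuclear genes for the respiratory chain and the mitochondrial factor TFAM, which packages and transcribes mitochondrial DNA. In muscle, contraction raises Ppargc1a through calcium, AMPK and p38 signalling, part of which acts at cAMP response elements of its promoter.

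The promoters of 3 members with measured transcripts are shown because their windows held a match to a motif of the pathways just named. RefSeq windows on build GRCm38.p6, running from 250 bases before to 50 bases after an annotated start, were available for all 9 genes (13 windows among 32851). Each is printed 5′ to 3′ on the strand of its gene, with the matched letters in capitals. In the Ppargc1a window at chr5:51567676-51567975 (minus strand) the capitals mark the cAMP response element core, in the Tfam window at chr10:71237995-71238294 (minus strand) a GABP site, and in the Ppara window at chr15:85735526-85735825 (plus strand) the same cAMP core and, further downstream, the core of the NRF1 site.
Ppargc1a: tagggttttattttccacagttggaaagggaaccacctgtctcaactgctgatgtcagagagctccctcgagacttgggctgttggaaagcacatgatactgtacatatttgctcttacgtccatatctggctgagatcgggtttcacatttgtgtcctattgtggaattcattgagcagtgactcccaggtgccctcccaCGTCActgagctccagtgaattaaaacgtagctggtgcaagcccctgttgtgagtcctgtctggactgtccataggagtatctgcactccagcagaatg
Tfam: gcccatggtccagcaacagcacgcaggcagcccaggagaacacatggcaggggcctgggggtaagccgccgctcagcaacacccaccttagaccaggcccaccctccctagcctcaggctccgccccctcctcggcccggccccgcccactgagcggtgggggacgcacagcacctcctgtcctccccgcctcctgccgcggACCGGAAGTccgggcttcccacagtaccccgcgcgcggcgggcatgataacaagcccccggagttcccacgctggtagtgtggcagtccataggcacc
Ppara: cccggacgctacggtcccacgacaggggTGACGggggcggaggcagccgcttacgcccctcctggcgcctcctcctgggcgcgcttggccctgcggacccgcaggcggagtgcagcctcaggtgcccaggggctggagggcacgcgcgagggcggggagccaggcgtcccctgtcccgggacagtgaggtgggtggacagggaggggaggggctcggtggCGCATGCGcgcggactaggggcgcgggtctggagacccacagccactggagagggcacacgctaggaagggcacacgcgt

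The GABP site was searched as ACCGGAAGT on both strands and was found in 1 of the 13 windows, 48 bases before the Tfam start, and in 1.10% of all 32851. The NRF1 core, the palindrome CGCATGCG, was found in 1 of the 13, 30 bases before the Ppara start, and in 1.87% of all windows. The cAMP response element core TGACG or its reverse complement CGTCA stood in 3 of the 13, at 49 bases before the start in Ppargc1a, 222 before it in Ppara and 4 before it in Ppard (not shown, since its transcript was not detected), and in 20.8% of all windows, a share close to that of the members. The full cAMP response element TGACGTCA, which contains that core, stood in 0 of the 13 (1.79% of all), and the ERR element TCAAGGTCA in 0 of the 13 (0.423% of all). These matches describe the letters in the windows and say nothing of binding in this muscle.

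The receptor that GW1516 targets was not measurable on these arrays. The background level was set at a signal of 23.5, the 95th percentile of 27 bacterial control probe sets. Ppard 1425703_at gave signals of 2.42, 2.73 and 2.16 in combination, 3.78, 2.36 and 5.75 in GW, 4.76, 2.52 and 4.85 in exercise, and 1.97, 2.37 and 2.58 in vehicle pools. All 12 values lay below background, and 1 of them above the control median of 4.88, so no fold change is given for Ppard, and this says only that this probe set did not detect it.

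The other probe set below the filter was Nrf1 1420978_at, with signals of 13.3, 27.3 and 18.3 in combination, 23.0, 19.8 and 30.2 in GW, 29.2, 4.32 and 9.52 in exercise, and 16.2, 12.03 and 34.0 in vehicle pools. It was above background on 4 of 12 arrays, 1 in each group, and in each group its signals lay on both sides of the background level. Ppara 1449051_at was above background on 11 of 12 arrays, the exception being exercise array 3 at 19.2. The remaining 14 probe sets, for Ppargc1a, Rxra, Rxrg, Esrra, Tfam, Nrf1 and Nrip1, were above background on all 12 arrays.

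**Figure D1:**
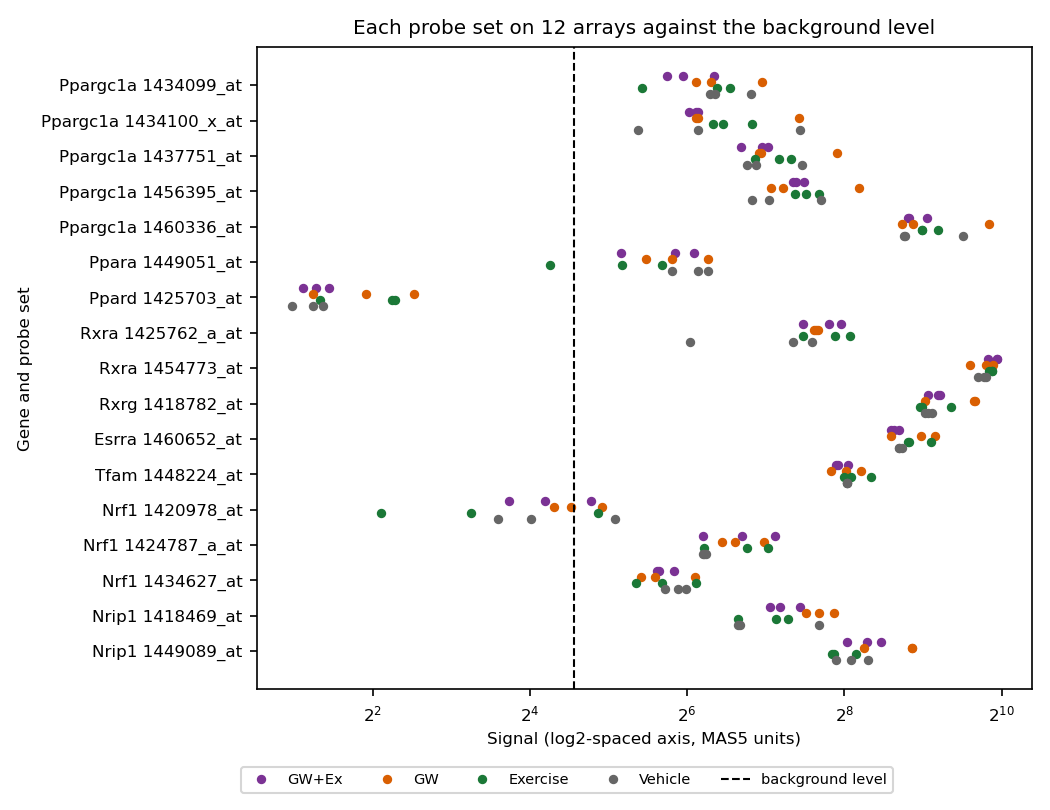
Signals of the 17 probe sets on a log2-spaced axis, 1 point per array, coloured by group (GW+Ex is the combination), with the background level of 23.5 as a dashed line. All points of Ppard lie left of the line, those of Nrf1 1420978_at on both sides, 1 point of Ppara just left of it, and the other 14 probe sets lie right of it.

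No transcript of the circuit passed the test in any comparison (adjusted p under 0.05, limma, Benjamini-Hochberg over 13575 probe sets). In combination against vehicle 0 of 15 were called, where 0.155% of all tested probe sets were, and 1 of 15 had an unadjusted p under 0.05, where 9.98% of all did. In GW against vehicle 0 were called (0.0958% of all), and 4 of 15 had an unadjusted p under 0.05, all higher in GW (6.42% of all, either direction): Rxra 1425762_a_at, Rxrg and both Nrip1 probe sets. In exercise against vehicle 0 were called (0.0147% of all), and 2 had an unadjusted p under 0.05 (10.4% of all), Rxra 1425762_a_at higher and Ppara lower in exercise. The single such probe set in combination against vehicle was again Rxra 1425762_a_at. Since 5 of the 15 are probe sets of Ppargc1a and 2 each belong to Rxra, Nrf1 and Nrip1, these are not 15 separate counts, and the 3 comparisons share the vehicle arrays.

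The comparisons between treated groups and the combined contrasts gave no call either. For GW1516 in trained mice, combination against exercise, 0 of 15 were called (0.162% of all) and 0 had an unadjusted p under 0.05 (9.18% of all). For training under the drug, combination against GW, 0 were called (0% of all) and 1 had an unadjusted p under 0.05 (5.75% of all), Nrip1 1449089_at, lower in combination. In the interaction, the difference between the drug's effects in trained and in sedentary mice, 0 were called (0% of all) and 1 had an unadjusted p under 0.05 (6.79% of all), Esrra. In the drug main effect, the mean of combination and GW minus that of exercise and vehicle, 0 were called (0.317% of all) and 2 had an unadjusted p under 0.05 (8.37% of all), both probe sets of Nrip1, higher with the drug. In the training main effect, the mean of combination and exercise minus that of GW and vehicle, 0 were called (0.0147% of all) and 2 had an unadjusted p under 0.05 (9.09% of all), Ppara lower and Rxra 1425762_a_at higher with training.

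The design left room for moderate changes. The half-width of the 95% confidence interval of a log2 fold change against vehicle ranged from 0.20 (Rxra 1454773_at) to 0.92 (Ppargc1a 1434100_x_at). Intervals lay wholly within a 2-fold change in either direction for 10 of 15 probe sets in each comparison with vehicle. The median log2 fold change of the 15, of which 5 are Ppargc1a, was -0.07 in combination, 0.23 in GW and 0.09 in exercise, each against vehicle, beside -0.003, -0.000627 and 0.01 over all tested probe sets.

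**Figure D2:**
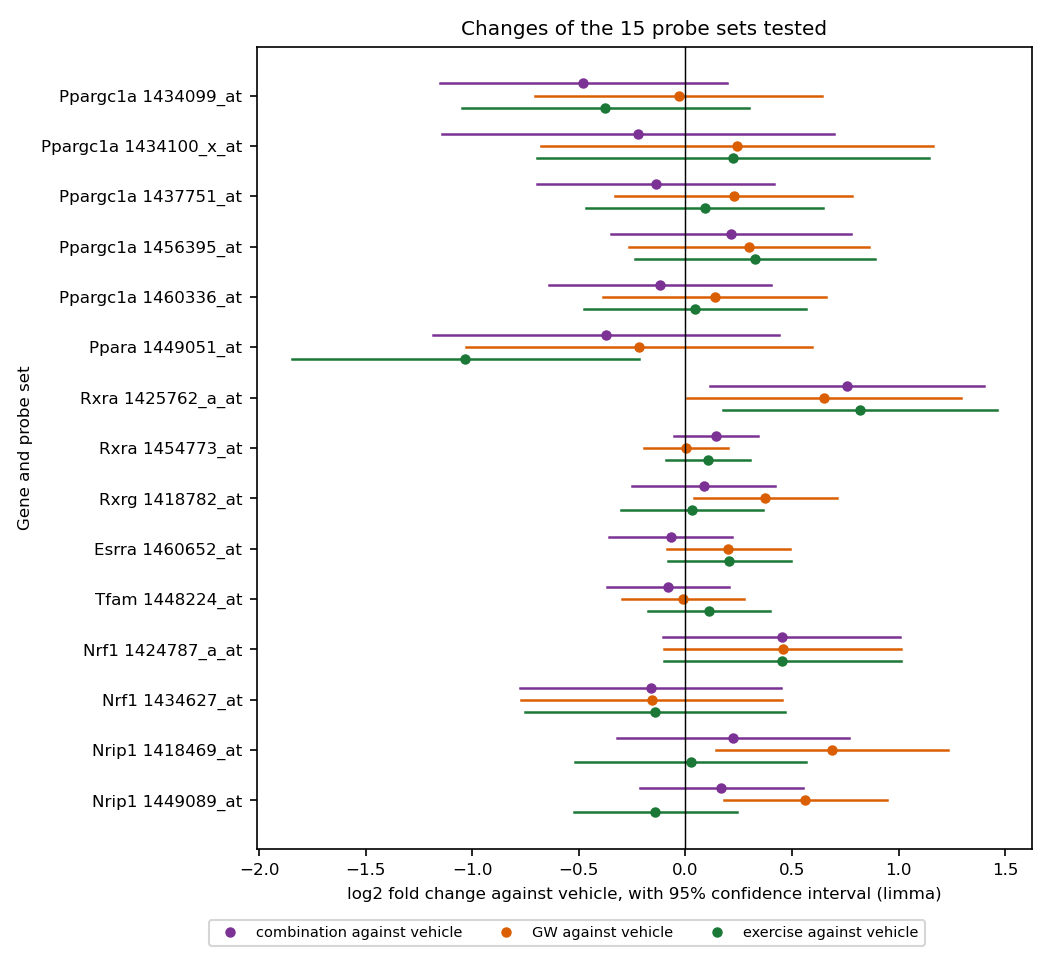
Log2 fold changes of the 15 tested probe sets against vehicle, in the order combination, GW and exercise, with 95% confidence intervals from limma. Most intervals cross 0, those of Ppara in exercise and Rxra 1425762_a_at in all 3 comparisons do not, and neither do those of Rxrg and both Nrip1 probe sets in GW.

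For Ppargc1a, the exercise-responsive coactivator, the spread between pools of the GW and vehicle groups was larger than the differences between the group means of its brightest probe set, 477 ± 48.2 in combination, 604 ± 272 in GW, 534 ± 45.5 in exercise and 533 ± 169 in vehicle (SD, n = 3). That probe set, 1460336_at, gave signals of 448, 451 and 533 in combination, 918, 426 and 469 in GW, 509, 587 and 507 in exercise, and 728, 435 and 436 in vehicle pools. Array 1 of GW and array 1 of vehicle were the highest of the 12, and the groups overlapped in every comparison. The log2 fold change was -0.12 ± 0.24 (SE, n = 3 arrays per group, limma) in combination, 0.14 ± 0.24 in GW and 0.05 ± 0.24 in exercise, each against vehicle, with adjusted p of 0.92, 0.941 and 0.965.

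All 5 Ppargc1a probe sets showed the 2 high arrays. GW array 1 was 1.66 to 2.45 times the mean of the other GW pools, and vehicle array 1 was 1.41 to 3.09 times the mean of the other vehicle pools. In 1456395_at the signals were 179, 168 and 163 in combination, 291, 134 and 149 in GW, 166, 182 and 204 in exercise, and 209, 132 and 114 in vehicle pools. Here the exercise and combination pools lay above vehicle arrays 2 and 3 and below vehicle array 1. In 1437751_at they were 124, 103 and 131 in combination, 241, 121 and 123 in GW, 117, 160 and 144 in exercise, and 176, 108 and 117 in vehicle pools.

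The 2 dimmer probe sets, 1434099_at and 1434100_x_at, were designed on the same deposited sequence, and the suffix _x_at marks probes that may also match other transcripts. The first gave 61.8, 53.4 and 81.3 in combination, 124, 79.3 and 69.3 in GW, 42.9, 83.2 and 93.1 in exercise, and 113, 78.6 and 81.7 in vehicle pools. The second gave 65.0, 69.2 and 70.6 in combination, 171, 70.5 and 69.1 in GW, 113, 87.8 and 80.7 in exercise, and 173, 41.4 and 70.5 in vehicle pools. In 1434100_x_at all 3 combination pools lay below all 3 exercise pools, with a log2 fold change of -0.45 ± 0.43 (SE, limma adjusted p = 0.813). In 1434099_at combination and exercise overlapped, with -0.10 ± 0.32.

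**Figure D3:**
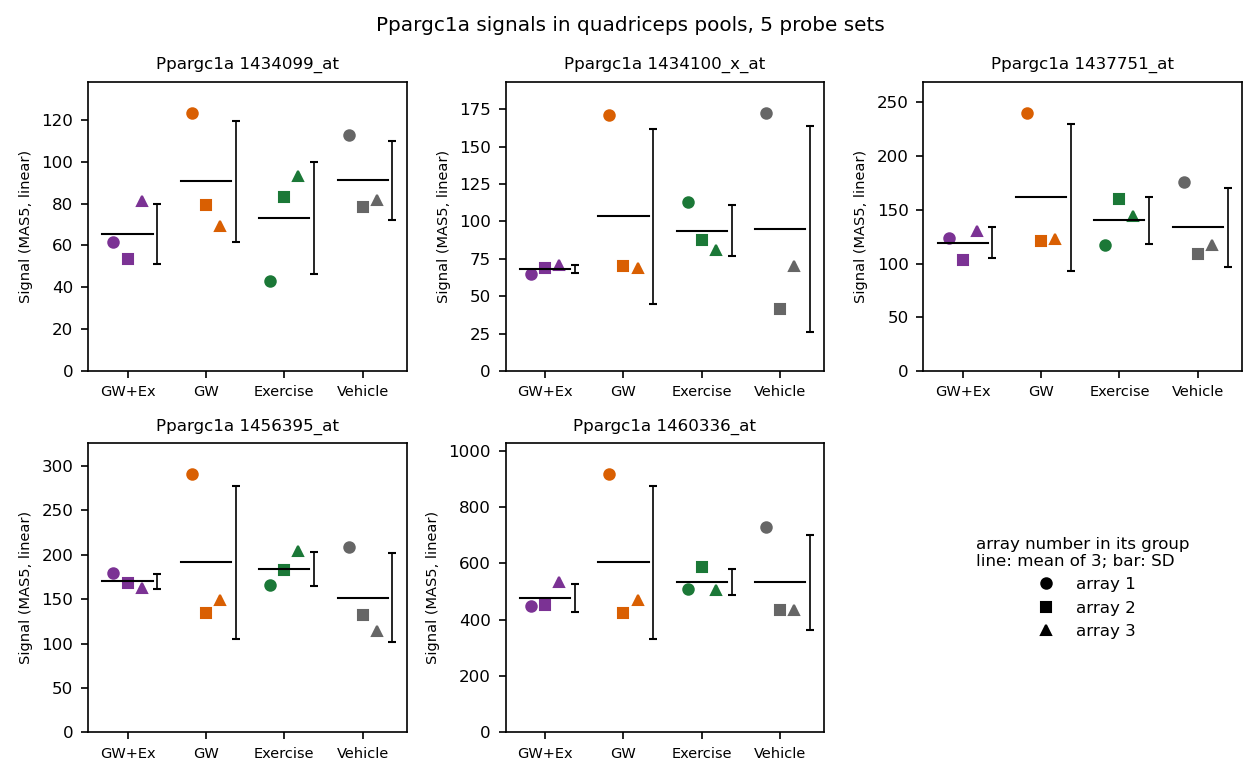
Signals of the 5 Ppargc1a probe sets in each pool (points, shape by array number), with the mean of 3 arrays as a line and the SD as a bar, for the combination (GW+Ex), GW, exercise and vehicle groups. Array 1 of GW is the highest or second highest point in every panel, and array 1 of vehicle stands above the other 2 vehicle arrays in every panel.

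The probe sets of Ppargc1a moved together over the 12 arrays to differing degrees, with Pearson correlations from 0.41 (1434099_at with 1434100_x_at) to 0.95 (1437751_at with 1460336_at). Without the 2 arrays farthest from the median the 10 correlations ran from 0.26 to 0.77. In sign the probe sets disagreed: in exercise against vehicle they ranged from -0.37 (1434099_at) to 0.33 (1456395_at), and in combination against vehicle from -0.48 (1434099_at) to 0.21 (1456395_at). All 5 were below 0 in combination against exercise, from -0.45 to -0.10, and in combination against GW, from -0.46 to -0.08. The lowest adjusted p among all Ppargc1a values was 0.597, in the training main effect of 1434099_at.

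These values rest on vehicle array 1 and GW array 1, and the fit without both of them, chosen after their signals were seen, moved several by more than 1.5 times. Without them 1456395_at was 0.58 higher in exercise than in vehicle on the log2 scale (unadjusted p = 0.00391, adjusted p = 0.191, limma), against 0.33 with all arrays. For 1460336_at the same comparison gave 0.29 (adjusted p = 0.398), for 1437751_at 0.30 (adjusted p = 0.63) and for 1434100_x_at 0.78 (adjusted p = 0.325), while 1434099_at stayed below 0 at -0.21 (adjusted p = 0.881). In the training main effect without them, 1456395_at stood at 0.42 (adjusted p = 0.176), and 1460336_at at 0.19 (adjusted p = 0.403), against 0.12 and -0.11 with all arrays. In combination against GW, 1456395_at and 1460336_at stood above 0 without them, at 0.26 and 0.09, and 1434100_x_at, 1437751_at and 1434099_at at -0.03, -0.04 and -0.20, so the shared sign with all arrays rests on those arrays. In combination against vehicle 4 of the 5 stood above 0 without them, at 0.47 (1456395_at), 0.34 (1434100_x_at), 0.13 (1460336_at) and 0.07 (1437751_at), where only 1456395_at did with all arrays. None of these passed the threshold. The 2 arrays left out were the highest of their groups in all 5 probe sets, so their removal had to raise each of these values. The p-values of that fit are therefore not a test of training or of the drug.

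The genes most like Ppargc1a were also high on GW array 1. Among 12497 tested probe sets of other genes, the closest to 1460336_at over the 12 arrays was Fkbp5 1448231_at, a steroid receptor co-chaperone, with r = 0.9504. Its signal was 558 on GW array 1 and 410 on vehicle array 1, and from 233 to 319 on the other arrays. Next came Hspb7 (r = 0.928), a small heat shock protein of heart and muscle, and Fhl1 (r = 0.918), a LIM-domain protein of muscle. Hspb7 1434927_at gave 3287 on GW array 1, against 250 and 278 on the other GW arrays, and 865 on vehicle array 1, against 368 and 368 on the other vehicle arrays. Fhl1 1417872_at gave 4694 on GW array 1, while its 1936 on vehicle array 1 lay below the 2256 of exercise array 2. Without vehicle array 1 and GW array 1 the correlations were 0.710, 0.770 and 0.878. On vehicle array 1 the ratio of 3′ to 5′ actin signal was 1.10, and it was 0.763 to 0.918 on the other arrays; GW array 1 stood at 0.801. The part of these differences in the Ppargc1a signals was not tested.

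Ppara, the receptor that drives fatty acid oxidation genes, had its lowest mean signal in trained mice without the drug, 53.7 ± 16.4 in combination, 59.2 ± 16.6 in GW, 35.5 ± 16.1 in exercise and 67.8 ± 10.8 in vehicle (SD, n = 3). Its only probe set, 1449051_at, gave 67.9, 57.4 and 35.7 in combination, 77.1, 44.5 and 56.1 in GW, 36.0, 51.3 and 19.2 in exercise, and 77.0, 70.5 and 55.8 in vehicle pools. All 3 exercise pools lay below all 3 vehicle pools, while the combination and GW pools overlapped with both. The log2 fold change of exercise against vehicle was -1.03 ± 0.38 (SE, unadjusted p = 0.0162, limma adjusted p = 0.375). Without exercise array 3, the one at background, it was -0.64, and it ran to -1.35 without exercise array 2.

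Combination pools stood 0.66 ± 0.38 above exercise pools on the log2 scale for Ppara (limma adjusted p = 0.64; 0.27 without exercise array 3), and the training main effect was -0.59 ± 0.27 (adjusted p = 0.546). The values in combination and in GW against vehicle were -0.37 ± 0.38 and -0.22 ± 0.38, with 95% intervals from -1.19 to 0.44 and from -1.03 to 0.59. Of 10 immediate early and stress-response genes, such as Fos and Hspa1b, 7 were above background on all arrays. The summed signal of the 10 was 525 to 1451 in GW, 5293 to 6663 in exercise and 728 to 871 in vehicle pools. In combination it was 6490, 1213 and 624 on arrays 1, 2 and 3, whose Ppara signals were 67.9, 57.4 and 35.7. The part of these genes in the Ppara values was not tested.

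Rxra encodes the retinoid X receptor that pairs with PPARs, and its 2 probe sets differed in the size of their changes against vehicle. In 1425762_a_at the signals were 224, 249 and 178 in combination, 195, 203 and 199 in GW, 235, 178 and 269 in exercise, and 65.7, 162 and 192 in vehicle pools. Vehicle array 1 was far below all others, and all 3 GW pools lay above all 3 vehicle pools. The log2 fold changes against vehicle were 0.76 ± 0.30 in combination, 0.65 ± 0.30 in GW and 0.82 ± 0.30 in exercise, with limma adjusted p of 0.438, 0.773 and 0.374. Without vehicle array 1 they were 0.28, 0.17 and 0.34, with adjusted p of 0.863, 0.978 and 0.65.

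The brighter Rxra probe set, 1454773_at, gave 980, 982 and 908 in combination, 774, 949 and 894 in GW, 945, 915 and 940 in exercise, and 830, 879 and 894 in vehicle pools. Its log2 fold changes were 0.14 ± 0.09 in combination, 0.00 ± 0.09 in GW and 0.11 ± 0.09 in exercise, each against vehicle, with intervals from -0.06 to 0.34, -0.19 to 0.20 and -0.09 to 0.30. Combination and exercise pools all lay above the vehicle pools, by amounts that did not pass the test (adjusted p = 0.643 and 0.715). The correlation of the 2 probe sets over the 12 arrays was 0.56.

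Rxrg, the retinoid X receptor enriched in muscle, had signals of 593, 535 and 587 in combination, 814, 803 and 520 in GW, 507, 659 and 498 in exercise, and 557, 537 and 522 in vehicle pools (1418782_at). GW arrays 1 and 2 were the highest of the 12, and GW array 3 lay just below the 3 vehicle pools. The log2 fold change of GW against vehicle was 0.37 ± 0.16 (unadjusted p = 0.0308, limma adjusted p = 0.751), and 0.59 without GW array 3 (adjusted p = 0.343). Leaving out GW array 1 or GW array 2 instead made it smaller than with all arrays. The log2 fold change was 0.09 ± 0.16 in combination and 0.03 ± 0.16 in exercise, each against vehicle.

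Esrra, the receptor through which PGC-1alpha acts on respiratory chain genes, had its lowest mean in combination, 399 ± 15.6, against 486 ± 91.8 in GW, 484 ± 57.2 in exercise and 418 ± 5.37 in vehicle (SD, n = 3). Its signals were 396, 385 and 416 in combination, 569, 388 and 502 in GW, 449, 453 and 550 in exercise, and 415, 424 and 415 in vehicle pools (1460652_at). All combination pools lay below all exercise pools and all exercise pools above all vehicle pools, while GW overlapped with combination and vehicle. Combination against exercise was -0.27 ± 0.14 (unadjusted p = 0.0619, limma adjusted p = 0.571) and combination against GW -0.27 ± 0.14 (adjusted p = 0.856). GW against vehicle was 0.20 ± 0.14, and it was 0.08 without GW array 1 and 0.36 without GW array 2. Exercise against vehicle was 0.21 ± 0.14, and 0.11 without exercise array 3. Without those same arrays combination against GW was -0.15 and -0.42, and combination against exercise -0.18. The interaction was -0.47 ± 0.19 (unadjusted p = 0.0256, adjusted p = 0.727), so no difference of the drug effect by training was called.

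Tfam, the packaging and transcription factor of mitochondrial DNA whose promoter holds the GABP site shown above, averaged 248 ± 13.6 in combination, 261 ± 33.4 in GW, 284 ± 36.1 in exercise and 262 ± 0.676 in vehicle (SD, n = 3). Its signals were 264, 241 and 239 in combination, 229, 295 and 259 in GW, 271, 325 and 256 in exercise, and 262, 262 and 261 in vehicle pools (1448224_at). The log2 fold changes were -0.08 ± 0.13 in combination, -0.01 ± 0.13 in GW and 0.11 ± 0.13 in exercise against vehicle, and -0.19 ± 0.13 in combination against exercise (limma adjusted p = 0.726; -0.09 without exercise array 2). The 95% intervals against vehicle ran from -0.37 to 0.21 in combination, from -0.30 to 0.27 in GW and from -0.18 to 0.40 in exercise.

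Nrf1, the factor that drives nuclear genes of the respiratory chain, gave opposite signs in its 2 tested probe sets. In 1424787_a_at the signals were 138, 73.3 and 104 in combination, 86.8, 97.5 and 126 in GW, 131, 74.4 and 109 in exercise, and 74.1, 75.7 and 73.5 in vehicle pools, so that the GW pools all lay above the vehicle pools. The log2 fold changes were 0.45 ± 0.26 in combination, 0.46 ± 0.26 in GW and 0.45 ± 0.26 in exercise against vehicle (limma adjusted p = 0.598, 0.814 and 0.56). Single arrays moved these values: combination stood at 0.23 without combination array 1 and 0.69 without combination array 2, and exercise at 0.28 without exercise array 1 and 0.68 without exercise array 2. In 1434627_at the signals were 49.98, 56.8 and 49.2 in combination, 42.6, 68.8 and 48.1 in GW, 51.5, 40.7 and 69.4 in exercise, and 52.6, 58.9 and 63.3 in vehicle pools. That probe set gave -0.16 ± 0.29, -0.16 ± 0.29 and -0.14 ± 0.29 for the same comparisons, with GW at -0.01 without GW array 1 and -0.36 without GW array 2, and the correlation of the pair over the 12 arrays was -0.05.

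Nrip1, the corepressor of oxidative genes, had its highest mean in sedentary mice given GW1516. In 1449089_at the signals were 314, 354 and 261 in combination, 305, 463 and 466 in GW, 233, 231 and 283 in exercise, and 238, 273 and 315 in vehicle pools. GW arrays 2 and 3 were the highest of the 12, and GW array 1 overlapped with vehicle. GW against vehicle was 0.56 ± 0.18 (95% interval 0.18 to 0.95, unadjusted p = 0.00687, limma adjusted p = 0.597), and the drug main effect was 0.44 ± 0.13 (unadjusted p = 0.00371, adjusted p = 0.296).

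The other Nrip1 probe set, 1418469_at, designed on the same transcript, gave 145, 174 and 132 in combination, 183, 204 and 234 in GW, 156, 101 and 140 in exercise, and 102, 99.8 and 205 in vehicle pools. Vehicle array 3 lay among the GW pools, and all combination pools lay below all GW pools. GW against vehicle was 0.69 ± 0.25 (unadjusted p = 0.0169, limma adjusted p = 0.716) and the drug main effect 0.44 ± 0.18 (adjusted p = 0.535). Without vehicle array 3 the value in GW against vehicle was 1.03 (adjusted p = 0.129). Without vehicle array 1 or vehicle array 2 it was smaller than with all arrays. Combination against GW was -0.39 ± 0.18 in 1449089_at and -0.46 ± 0.25 in 1418469_at, with adjusted p of 0.856 and 0.863. The first was -0.60 without GW array 1, and smaller in size than with all arrays without GW array 2 or GW array 3. The 2 probe sets had a correlation of 0.80 over the 12 arrays.

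**Figure D4:**
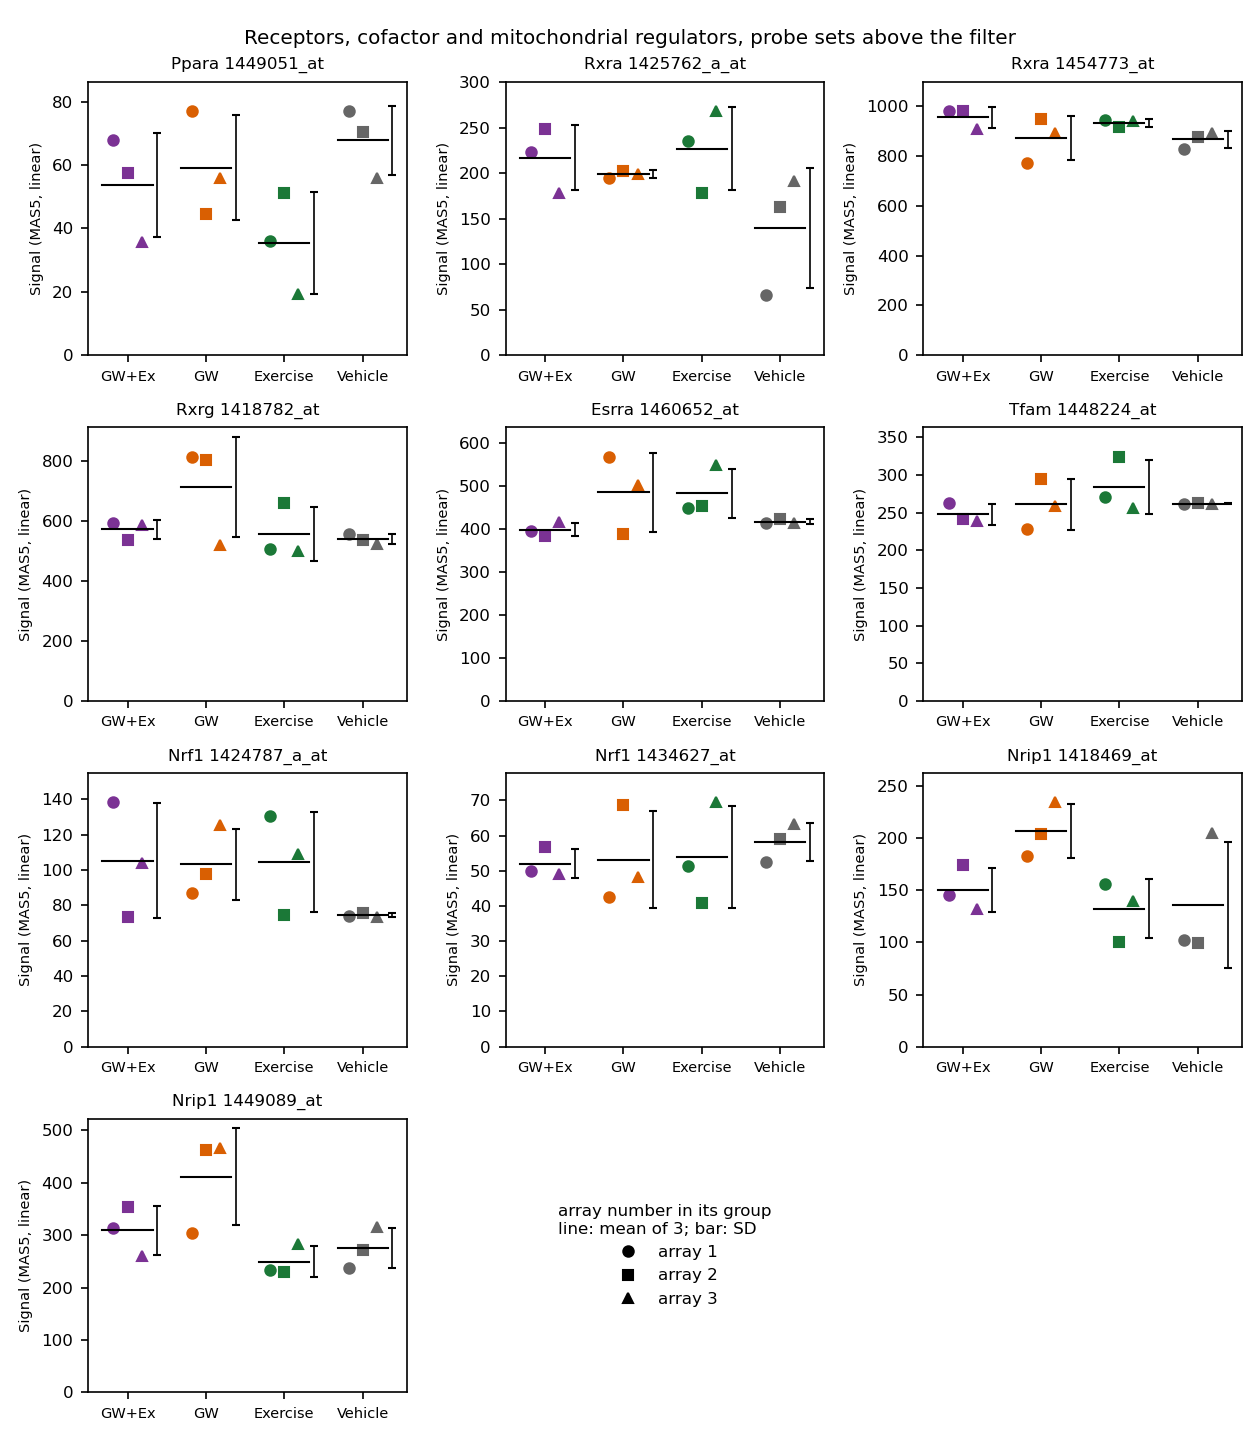
Signals of the tested probe sets of Ppara, Rxra, Rxrg, Esrra, Tfam, Nrf1 and Nrip1 in each pool (points, shape by array number), with the mean of 3 arrays as a line and the SD as a bar, for the combination (GW+Ex), GW, exercise and vehicle groups. The lowest point of Ppara lies in exercise, 1 vehicle point of Rxra 1425762_a_at lies at 65.7 below all others, and the highest point of each Nrip1 probe set lies in GW.

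The gene most like Nrip1 1449089_at was Pde4dip (r = 0.851 over 12 arrays), followed by Foxo1 1416981_at (r = 0.839; 0.697 without GW arrays 2 and 3), a factor of the fasting response that also takes part in signalling to Ppargc1a. Foxo1 1416981_at gave 239, 246 and 244 in combination, 294, 361 and 331 in GW, 134, 161 and 179 in exercise, and 218, 188 and 251 in vehicle pools. All combination pools lay above all exercise pools, and all GW pools above all vehicle pools. It passed the test in the drug main effect, at 0.61 ± 0.11 on the log2 scale (limma adjusted p = 0.0204), and not in GW against vehicle (0.59 ± 0.15, adjusted p = 0.35) or combination against exercise (0.63 ± 0.15, adjusted p = 0.145).

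The Foxo1 call depended on the setting. Its other probe sets gave drug main effects of 0.74 ± 0.16 (1416982_at, limma adjusted p = 0.0873) and 0.37 ± 0.20 (1416983_s_at, adjusted p = 0.656), with none past the threshold. The call for 1416981_at was lost with no intensity trend (adjusted p = 0.104) and when 1 of 7 arrays was left out: vehicle 2 (0.0715), exercise 1 (0.0601), exercise 2 (0.0506), combination 2 (0.0759), combination 3 (0.0605), GW 2 (0.0585) or GW 3 (0.0674).

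For the other members the closest genes by the same measure were Srp9 for Ppara (r = 0.941), Mrpl42 for Rxra 1454773_at (r = 0.905), Cct3 for Esrra (r = 0.893), Tpi1 for Tfam (r = 0.885), Camk2d for Nrf1 1424787_a_at (r = 0.839) and Fas for Rxrg (r = 0.806). Without the 2 arrays farthest from the median of the member, these were 0.819, 0.677, 0.852, 0.861, 0.815 and 0.212, so the likeness of Rxrg and Fas rests on GW arrays 1 and 2. Each was the highest of 12497 values, and the points share arrays and labelling, so no p is given.

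Among the members themselves, taking the brightest probe set of each, the strongest correlation over the 12 arrays was that of Ppargc1a with Rxra, -0.80. It rests on vehicle array 1 and GW array 1, since it was -0.09 without them. Ppargc1a and Esrra, partners in the activation of respiratory genes, had a correlation of 0.54 over all arrays and 0.45 without the 2 farthest. Ppargc1a and Nrip1, which act on the same receptors in opposite directions, had -0.41, and -0.65 without the 2 farthest.

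From a list of 27 gene symbols taken as PPAR targets, 21 genes were tested with 30 probe sets. Binding of PPARs to these genes was not measured here. In the drug main effect 12 of the 30 passed higher, 0 lower, and 18 did not pass, beside 0.317% of all tested probe sets. The median log2 fold change of the 30 was 0.53, against -0.003 over all tested probe sets. The list was drawn up with earlier results of these arrays known, so its count is not independent evidence of a direction. The called probe sets belong to Acadl, Slc27a1, Ucp3, Acaa2, Angptl4, Cpt1a, Slc25a20, Fabp3 and Mlycd.

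Acadl 1448987_at, the long-chain acyl-CoA dehydrogenase, averaged 2851 ± 267 in combination, 2826 ± 174 in GW, 1396 ± 165 in exercise and 1118 ± 76.5 in vehicle pools (SD, n = 3). Its drug main effect was 1.19 ± 0.07 (limma adjusted p = 7.49e-07). Slc27a1 1422811_at, a fatty acid transporter, averaged 412 ± 42.0, 330 ± 11.4, 141 ± 17.9 and 115 ± 17.3 in combination, GW, exercise and vehicle pools, with a drug main effect of 1.54 ± 0.11 (adjusted p = 2.07e-06). Ucp3 1420658_at, a mitochondrial carrier of muscle, averaged 1265 ± 124, 1155 ± 222, 706 ± 41.0 and 430 ± 40.4 in the same order, with 1.13 ± 0.09 (adjusted p = 1.2e-05).

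By comparison, 10 of the 30 passed in combination against vehicle (0.155% of all), 9 in GW against vehicle (0.0958% of all) and 5 in combination against exercise (0.162% of all), all higher with the drug. In exercise against vehicle and the training main effect 0 of 30 passed (0.0147% of all in each). At an unadjusted p under 0.05 there were 13 and 15 of 30, all higher with training, beside 10.4% and 9.09% of all. In combination against GW and the interaction 0 of 30 passed (0% of all in each), with 6 and 8 of 30 at that level, beside 5.75% and 6.79% of all. The 6 were all higher in combination, and of the 8 in the interaction 1 was above 0 and 7 below. Without vehicle array 1 and GW array 1 the counts were 8 in combination against exercise, 4 in exercise against vehicle and 3 in the training main effect, so the 0 for training depends on those arrays. Without GW array 1 alone the training main effect had 1 call. Exercise against vehicle had 4 calls with array weights, 2 with only the groups compared, 2 without combination array 1 or GW array 1, and 1 without vehicle array 1 or GW array 2 and with 1 probe set per gene. With no intensity trend the counts were 6 in combination against vehicle, 6 in GW against vehicle, 2 in combination against exercise and 7 in the drug main effect. GW against vehicle had 5 with only the groups compared, and combination against exercise 3 without combination array 2. Adipocytes also express several of these genes. Of 6 adipocyte markers 5 were above background on all arrays. The summed signal over the 6 was 7062 to 15709 in combination, 5994 to 9104 in GW, 6415 to 7942 in exercise and 6535 to 7327 in vehicle pools. The brightest probe set of Car3 ran from 3907 to 8640 over all arrays, and that of Fabp4 from 1248 to 3946. Adipoq ran from 210 to 1471, Retn from 82.8 to 929 and Cidec from 45.4 to 716. The sum thus follows mostly Car3 and Fabp4, and it can hide wider relative changes in the dimmer markers. The part of fat tissue in the target gene values was not tested.

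Target genes of PGC-1alpha and ERRalpha, mostly respiratory chain and citric acid cycle genes, gave 0 calls among 49 tested probe sets of 25 genes in every comparison. In exercise against vehicle 13 of 49 were higher and 0 lower at an unadjusted p under 0.05, beside 10.4% of all tested probe sets in either direction, and the median log2 fold change was 0.15 against 0.01 over all. The smallest p there was that of Ckmt2 1428722_at, the mitochondrial creatine kinase of muscle, at 0.52 ± 0.10 (limma adjusted p = 0.131). In combination against vehicle 10 were higher and 2 lower at that level (9.98% of all), and in GW against vehicle 7 were higher and 1 lower (6.42% of all). In the drug main effect 3 were higher and 2 lower, a share near the 8.37% of all, with a median of 0.01.

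The marker sums of some cell types differed between exercise and vehicle pools, and those of others overlapped. The summed signal of the 8 skeletal muscle markers was 108694 to 121445 in combination, 99025 to 125317 in GW, 120870 to 126584 in exercise and 103411 to 104548 in vehicle pools, so that exercise lay above vehicle with no overlap. Of these 8, Mb is also in the list of PGC-1alpha and ERRalpha target genes, so this sum and that list are not separate measures. Mb 1451203_at averaged 8678 ± 1169 in exercise and 4223 ± 1171 in vehicle pools (SD, n = 3). The sum of 5 endothelial markers, all above background on all arrays, was 799 to 903 in exercise and 753 to 769 in vehicle pools. It was 696 to 870 in combination and 603 to 749 in GW pools, so that GW lay below vehicle. That of 3 Schwann cell markers, of which 2 were above background on all arrays, was 278 to 297 in exercise and 321 to 347 in vehicle pools. It was 248 to 343 in combination and 270 to 282 in GW pools, so GW as well as exercise lay below vehicle. Exercise and vehicle overlapped for 5 fibroblast markers (6472 to 6985 and 5439 to 6752). They also overlapped for 5 macrophage markers (542 to 711 and 421 to 648). The part of these sums in the target gene and member values was not tested.

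The other regulators of the circuit gave 1 call in all. Of 47 tested probe sets of 21 upstream genes, which include AMPK, p38 and calcium-dependent kinases and their transcription factors, Foxo1 was the 1 called, in the drug main effect (0.317% of all). Foxo3 1434831_a_at, a relative of Foxo1, stood at -1.01 ± 0.24 in exercise against vehicle (limma adjusted p = 0.225). It was also lower in GW, at -0.72 ± 0.24, and in combination, at -0.65 ± 0.24, against vehicle (adjusted p = 0.664 and 0.409). Its means were 325 ± 89.2 in combination, 309 ± 75.6 in GW, 251 ± 48.1 in exercise and 512 ± 158 in vehicle pools (SD). Among 17 probe sets of 11 cofactors and coregulators 0 were called in any comparison. The smallest p against vehicle there was that of Ncoa1 1434515_at, a receptor coactivator, at -0.40 ± 0.12 in combination (adjusted p = 0.25).

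Among 23 probe sets of 14 other nuclear receptors 0 were called, with 11 of 23 at an unadjusted p under 0.05 in the training main effect, 6 higher and 5 lower, beside 9.09% of all tested probe sets. The clock receptor Nr1d1 1426464_at stood at 0.59 ± 0.16 in that contrast (limma adjusted p = 0.288). It averaged 492 ± 109 in combination, 255 ± 81.2 in GW, 536 ± 79.6 in exercise and 464 ± 97.1 in vehicle pools (SD). The GW mean was thus the lowest, at -0.89 ± 0.22 against vehicle (adjusted p = 0.35). The activity-induced receptor Nr4a2 1450749_a_at stood at 2.01 ± 0.54 in exercise and 1.63 ± 0.54 in GW against vehicle (adjusted p = 0.257 and 0.632). Nr4a2 averaged 74.2 ± 10.6 in combination, 98.7 ± 33.2 in GW, 130 ± 49.4 in exercise and 41.8 ± 35.2 in vehicle pools (SD). Its vehicle pools differed widely. Among 22 probe sets of 15 genes for mitochondrial genome transcription and replication 0 were called. Yy1 1422570_at, a partner factor of PGC-1alpha, stood at 0.92 ± 0.27 in combination, 0.91 ± 0.27 in GW and 1.00 ± 0.27 in exercise against vehicle, with adjusted p of 0.263, 0.555 and 0.28. Its mean vehicle signal was 28.5 ± 2.53 (SD), close to the background level of 23.5, so the sizes of these values are uncertain.

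**Figure D5:**
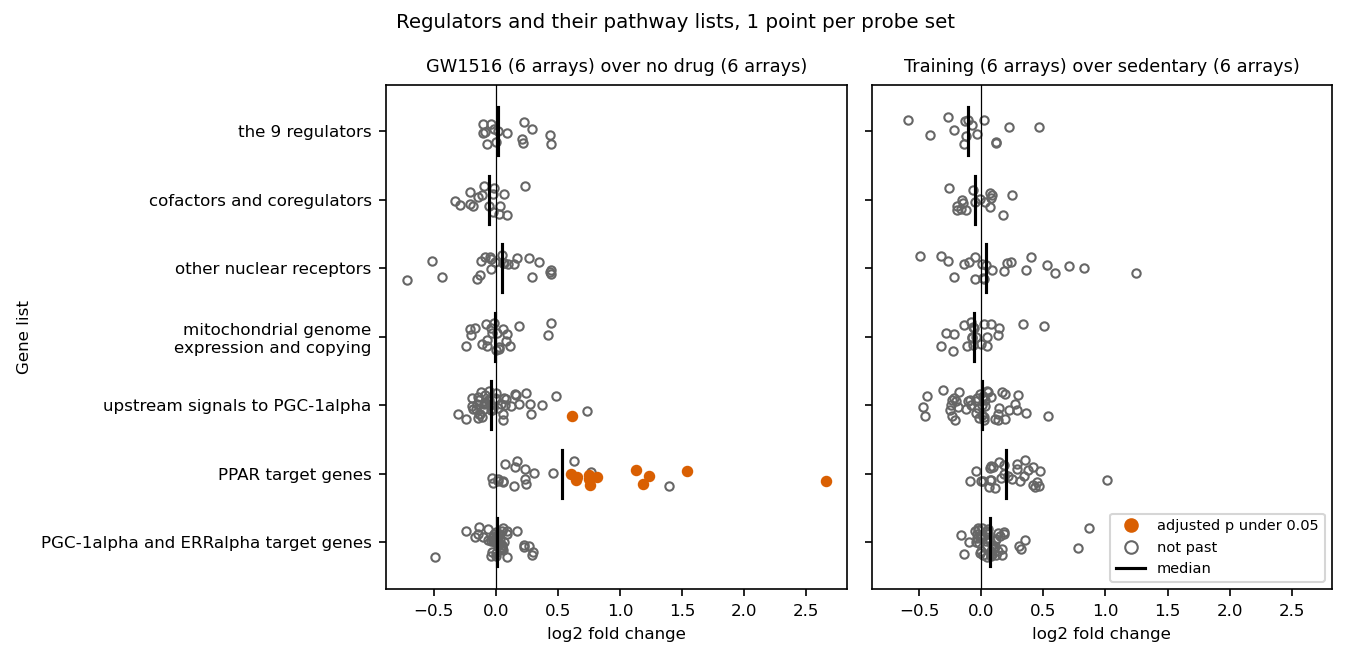
Log2 fold changes of each tested probe set (1 point) for the circuit's neighbours by list, with the drug main effect at left and the training main effect at right, a bar at each list's median and filled points where the limma adjusted p was under 0.05. The filled points are 12 PPAR target probe sets and 1 of the upstream list, all higher with the drug, and the training panel has 0.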

How the data were processed

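The deposited values are array signal intensities on a linear scale that the authors made with MAS5, per the submitters' processing notes (version not given in the sources used here). The mean of each array, without its lowest and highest 2% of values, was 200.093 to 200.098. Signals were log2-transformed as deposited, with no pseudocount. Of 22690 probe sets, 64 controls were left out, and the upper 60% by mean log2 signal (13575, above 28.4) were tested. The 12 arrays were fitted with limma 3.58.1 (R 4.3.3), using group means of the 4 groups (8 residual degrees of freedom), with variances moderated along an intensity trend, two-sided tests and Benjamini-Hochberg adjustment over all probe sets tested (threshold 0.05). Simulated data with these arrays' spread had 54% of 2-fold and 86% of 3-fold changes called in exercise against vehicle over 13575 probe sets. The changed probe sets were drawn at random from all tested, with a median SE of 0.21 over all and 0.26 over the members. The real comparison had 2 calls, which makes the adjusted threshold stricter than in the simulation. These shares are therefore likely too high for the members.

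Gene names came from the array annotation. All probe sets of the members were named. From each list and comparison, up to 2 were named where none passed, and up to 4 where some did. The exception is the PPAR targets in the drug main effect, where all called genes were named. Genes most like a member were those with the highest Pearson r. The members, lists and comparisons were chosen with earlier results of these data known. After matches had been seen, the NRF1 motif was shortened to its core and a PPAR element dropped from the promoter search. Array numbers in the labels were not used to pair the arrays in the main fit. Of 18 same-numbered pairs the correlations of deviations ran from -0.048 to 0.100. Their mean was 0.013, beside -0.0065 for pairs of different numbers. For 8 arrays the closest partner had their own number, so a weak pairing is not excluded. Alternatives covered normalization, pseudocount, floor, filter, moderation, array weights, a replicate block, probe set summaries and leaving out arrays.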

Additional observations from a re-analysis of the deposited data

How the results depend on the processing

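In all 26 alternative settings and in each comparison they could be run for, 0 member probe sets passed the threshold. Signals were normalized by quantiles or cyclic loess, or given a pseudocount, or a floor at the background level. Other settings were no filter, a filter at the upper 40% (which leaves 11 of the 15 probe sets), no trend, a robust prior, weights for arrays, only the groups compared, a replicate block, 1 value per gene by 2 rules (8 genes), each array left out in turn, and vehicle array 1 with GW array 1 left out, the last chosen after seeing the data. Fitting only 2 groups cannot give the interaction or the main effects. With the replicate block the count was 0 in every comparison, and 8 of 12 arrays were closest to an array of their own number. Of 2867 alternative log2 fold changes, 125 had the other sign than the value reported, 0 of them called in either fit, and 8 moved by more than 1 residual SD. The 13 values with an unadjusted p under 0.05 kept their sign in all 312 alternatives, and 79 of these had a p at or above 0.05. With the background level set at the control median or at the 20th percentile of all signals, 15 probe sets instead of 14 were above it on all arrays. Among the members, signals near background limit Ppara, Ppard and Nrf1 1420978_at. The vehicle signals of Yy1 1422570_at, from the neighbour lists, also lay close to background.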
